A study of Homo sapiens with 6 samples.

Results

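The genes described here are 45 listed members of the zinc finger gene clusters at 19p12 and 19q13.2 of human chromosome 19, of 62703 genes in the deposited expression table. At 19p12 there were 28 members, from ZNF90 to ZNF254 (chr19:20077994-24129968 of GRCh38), and at 19q13.2 there were 17, from ZNF404 to ZNF180 (chr19:43872365-44500524). The name 19q13.2 is kept for the second cluster, although band maps of GRCh38 place these positions in the adjacent band 19q13.31. Other zinc finger genes of the same intervals, among them ZNF724, ZNF285 and ZNF229, were not on the list and are counted with the other genes of the intervals. The members were taken by gene name, and the clusters were selected on the difference between the genotypes in the same samples. The differences of the members are therefore given as a description, with standard errors (SE) and no p. Calls from the fit over all genes are used to sort the members, not as a test of them, and nothing is supported with them.

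RNA-seq was performed on PANC-1, an established human cell line of pancreatic ductal adenocarcinoma, in 3 wild-type samples (DKK1-SE+/+) and 3 samples of gene-edited cells (DKK1-SE-/-). In the latter, CRISPR/Cas9 had deleted e1, a component enhancer of the super-enhancer DKK1-SE near DKK1, and the cells of both genotypes were grown in the same serum-supplemented medium. The DKK1-SE-/- cells were 1 homozygous subclone, so the deletion and any other difference between this clone and the parental cells cannot be told apart. The labels call the samples biological replicates, and the study's methods state in general that experiments had independent replicates. Neither says that the RNA-seq samples came from separate cultures, so the p-values measure only the spread between these samples, which may be technical.

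C2H2 zinc finger genes form tandem clusters on chromosome 19 that grew by repeated duplication, and many of them code for a KRAB domain followed by an array of DNA-binding fingers. The KRAB domain recruits the corepressor TRIM28, which brings the methyltransferase SETDB1 and HP1 proteins and leads to methylated histone H3 at lysine 9. Many KRAB zinc finger proteins silence transposable elements, and the clusters themselves carry this repressive mark in many cell types.

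The table gave an expected count and a TPM value (an abundance scaled for transcript length and library total) for each gene and sample. Total expected counts were 21822314, 16475810 and 18803154 in DKK1-SE+/+ replicates 1 to 3, and 17359835, 20098086 and 17804764 in DKK1-SE-/- replicates 1 to 3. Values for each sample are listed in this order throughout. DKK1, the gene that the super-enhancer is named for, had 229, 246 and 199 TPM in DKK1-SE+/+ cells and 66.8, 79.8 and 82.7 TPM in DKK1-SE-/- cells. Every DKK1-SE-/- sample lay under every DKK1-SE+/+ sample, the direction that the labels imply (log2 fold change -1.45, SE 0.11). All 6 ductal epithelial markers reached 1 TPM, with summed levels of 1901, 1954 and 1993 TPM against 3192, 3128 and 2708 TPM, and KRT8 was the most abundant of them. The higher sum came mainly from the keratins KRT8, KRT18 and KRT19, whereas SOX9 (55.5, 67.0 and 70.3 TPM against 45.7, 38.9 and 48.3 TPM) and EPCAM (4.81, 3.91 and 3.80 TPM against 1.70, 3.27 and 2.78 TPM) were lower in every DKK1-SE-/- sample. The acinar, endocrine, fibroblast and endothelial markers each summed to at most 1.22 TPM in any sample, with CELA3A and INS at 0 in all samples. Both immune markers together summed to 43.2, 40.9 and 46.5 TPM against 67.9, 64.8 and 67.1 TPM, nearly all from CD68, whereas the leukocyte marker PTPRC was at 0 in DKK1-SE+/+ cells and at 0.01, 0 and 0.04 TPM in DKK1-SE-/- cells. The part of the differences in ductal markers and CD68 in the results on the clusters was not tested.

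The clusters were lowly expressed. At 19p12 the summed level of the 28 members was 26.4, 30.5 and 25.4 TPM in DKK1-SE+/+ cells and 37.4, 38.6 and 52.3 TPM in DKK1-SE-/- cells, so the groups did not overlap. At 19q13.2 the 17 members summed to 53.5, 50.8 and 43.2 TPM and to 36.5, 45.4 and 52.4 TPM, and the groups overlapped. In bulk RNA, fewer cells expressing a gene and less RNA per cell cannot be told apart. Of the members, 20 of 28 at 19p12 and 16 of 17 at 19q13.2 had enough counts to be tested, and a member could pass this filter through the genotype in which it was higher. The mean level of the tested members ranged from 0.24 to 6.25 TPM at 19p12 and from 0.207 to 10.8 TPM at 19q13.2.

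**Figure D1:**
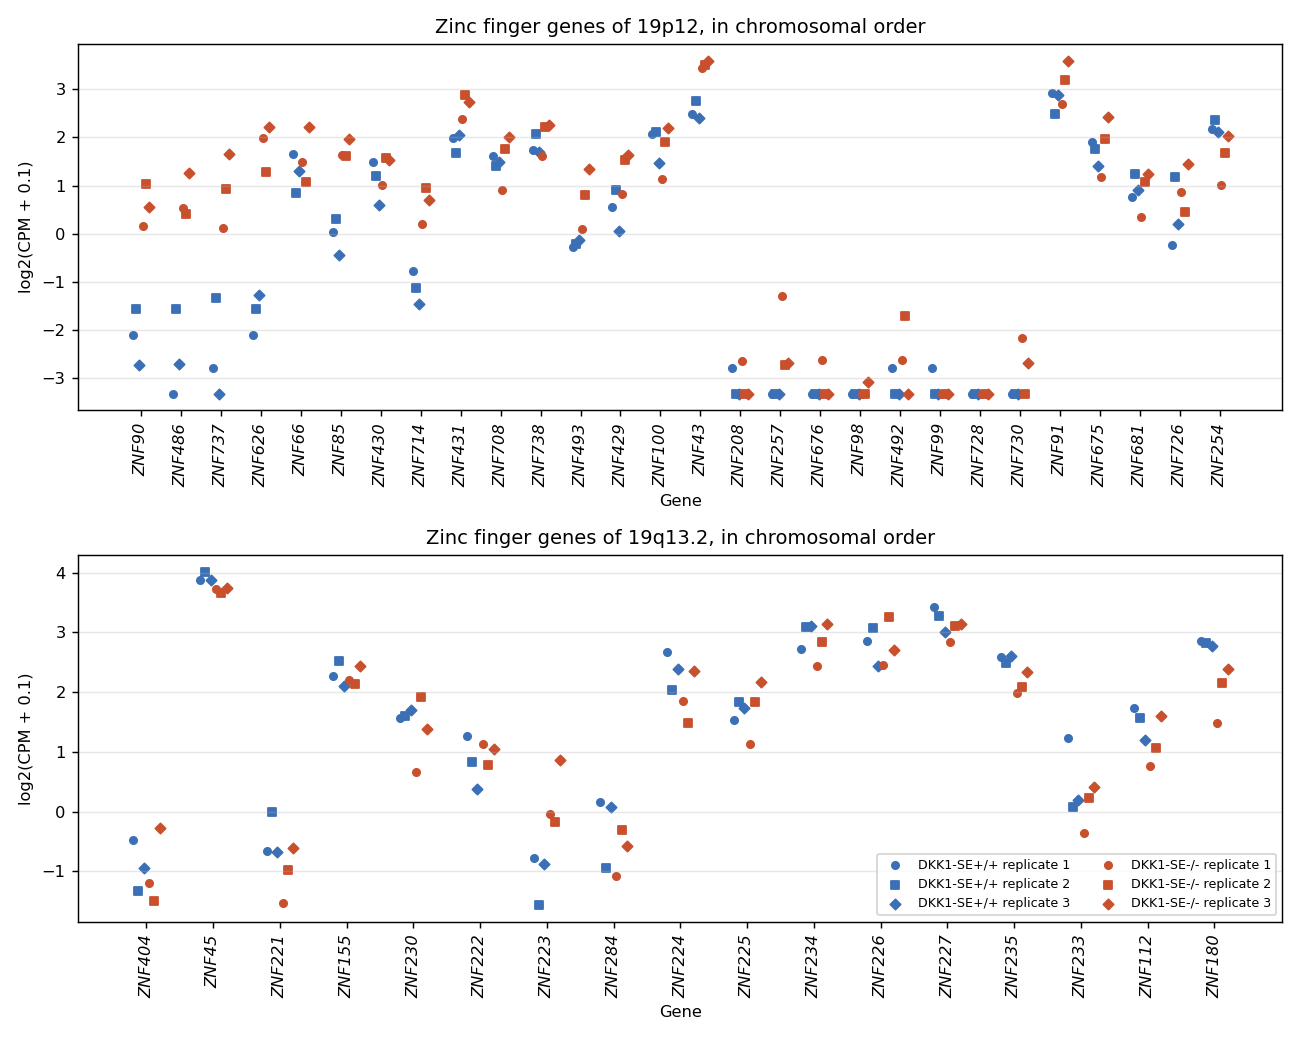
Normalized counts of each of the 45 members in each sample, as log2(CPM + 0.1) on the vertical axis (CPM is the expected count scaled to library size and TMM factor), with genes in chromosomal order on the horizontal axis; each point is 1 sample, its colour the genotype and its shape the replicate. ZNF90, ZNF486, ZNF737 and ZNF626 have all 3 DKK1-SE-/- points far above the DKK1-SE+/+ points, the 8 members from ZNF208 to ZNF730 lie at or near the bottom in both genotypes, and most 19q13.2 members have intermixed points.

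A gene was called when edgeR's quasi-likelihood test gave an unadjusted p under 0.05 and the absolute log2 fold change was at least 1.2. By this rule 6 tested members at 19p12 were higher in DKK1-SE-/- cells, beside 4.96% of all 15179 tested genes, and 0 were lower, beside 3.70%. With no limit on the fold change, the unadjusted p was under 0.05 for 10 members that were higher and 1 that was lower, beside 24.8% and 23.6% of all tested genes, and DESeq2 and limma also called 0 lower. At 19q13.2, 1 member was called higher and 0 lower, with 1 higher and 2 lower at an unadjusted p under 0.05, and DESeq2 and limma called 0 lower. At an adjusted p under 0.05 there were 9 higher and 0 lower at 19p12 and 1 higher and 1 lower at 19q13.2, beside 19.8% higher and 19.5% lower over all tested genes. The normalized counts did not overlap between the genotypes for 9 higher and 1 lower member at 19p12 and for 1 higher and 3 lower members at 19q13.2, beside 26.2% and 25.7% of all tested genes. Nothing is read from these shares, since the same contrast chose the clusters.

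Near its distal end the 19p12 cluster held 4 adjacent members, ZNF90, ZNF486, ZNF737 and ZNF626, that were all called higher, over 583.6 kb (chr19:20077994-20661596). They summed to 7, 17.0 and 8.03 expected counts in DKK1-SE+/+ cells and to 117, 144 and 202 in DKK1-SE-/- cells. Their summed level was 0.58, 0.46 and 0.44 TPM against 4.39, 4.37 and 6.03 TPM. The groups were far apart on both scales, although every level stayed low. All 4 code for zinc finger proteins of the KRAB type, ZNF90 and ZNF486 on the plus strand and ZNF737 and ZNF626 on the minus strand.

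ZNF90 (ENSG00000213988) had 3, 4 and 1 expected counts in DKK1-SE+/+ cells and 16.4, 38.2 and 24.8 in DKK1-SE-/- cells. All 3 DKK1-SE-/- samples were high and the groups did not overlap (log2 fold change 3.33, SE 0.54). The difference of ZNF90 was smaller on the TPM scale. Its levels were 0.37, 0.27 and 0.02 TPM against 0.67, 1.27 and 0.8 TPM, a log2 ratio of the means of 2.05. ZNF486 (ENSG00000256229) had 0, 4 and 1.03 counts against 22, 24 and 41. Here too the groups were apart, and the DKK1-SE+/+ counts were near 0 (4.12, SE 0.69). ZNF737 (ENSG00000237440) had 1, 5.02 and 0 counts against 16.02, 35.6 and 54.6. DKK1-SE-/- replicate 3 was the highest and replicate 1 the lowest of the edited samples, still above every DKK1-SE+/+ sample (4.16, SE 0.75). ZNF626 (ENSG00000188171) had 3, 4 and 6 counts against 63, 46 and 82. It had the highest level of the 4 in DKK1-SE-/- cells, at 3.16, 1.96 and 3.58 TPM, with no overlap (3.96, SE 0.43). The mean DKK1-SE+/+ count was 2.67 for ZNF90, 1.68 for ZNF486 and 2.01 for ZNF737, under the floor of 3 counts per library, and 4.33 for ZNF626. The size of these folds is therefore uncertain, and all 4 genes passed the filter through the DKK1-SE-/- samples alone. Because the DKK1-SE+/+ counts were so few, the ratios of summed counts per effective depth had wide 95% counting intervals, which cover counting error only. The ratio was 10.8 (5.19 to 25.7) for ZNF90 and 18.8 (7.80 to 59.7) for ZNF486. It was 19.2 (8.53 to 53.5) for ZNF737 and 15.96 (9.11 to 30.5) for ZNF626. Single DKK1-SE+/+ samples also weighed on these sizes: the log2 fold change of ZNF486 was 5.73 without replicate 2 and 3.43 without replicate 1, and that of ZNF737 was 6.02 without replicate 2.

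**Figure D2:**
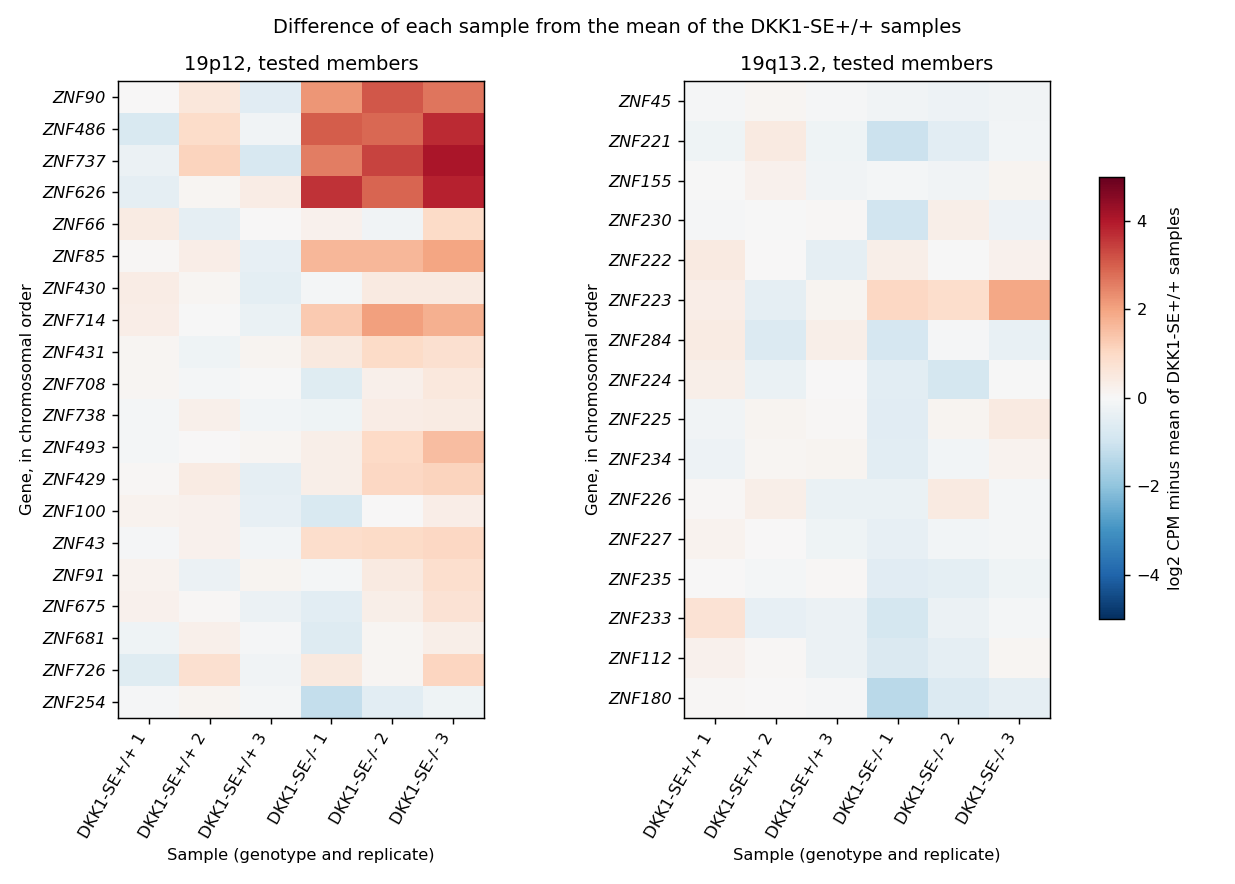
Difference of each sample from the mean of the DKK1-SE+/+ samples, in log2 CPM (colour scale), for the tested members in chromosomal order (rows) and the 6 samples (columns). The darkest red block is formed by ZNF90, ZNF486, ZNF737 and ZNF626 in the 3 DKK1-SE-/- samples, and at 19q13.2 ZNF223 is the row with the strongest red.

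The promoters of these 4 called genes are shown beside those of members without a call. The latter are ZNF43, the most abundant 19p12 member, ZNF208, and ZNF226, the most abundant 19q13.2 member. ZNF208 was nearly silent in both genotypes, was not tested, and was chosen after its values were seen. Each RefSeq window (GRCh38.p14) holds 250 bases before and 50 after the annotated start and is written 5′ to 3′ on the gene's strand, with each CCAAT on either strand in capitals. The windows lie at chr19:20077750-20078049 (plus strand) for ZNF90, chr19:20166964-20167263 (plus) for ZNF486, chr19:20565732-20566031 (minus) for ZNF737 and chr19:20661522-20661821 (minus) for ZNF626. They lie at chr19:21836133-21836432 (minus) for ZNF43, chr19:22010894-22011193 (minus) for ZNF208 and chr19:44164850-44165149 (plus) for ZNF226.
ZNF90: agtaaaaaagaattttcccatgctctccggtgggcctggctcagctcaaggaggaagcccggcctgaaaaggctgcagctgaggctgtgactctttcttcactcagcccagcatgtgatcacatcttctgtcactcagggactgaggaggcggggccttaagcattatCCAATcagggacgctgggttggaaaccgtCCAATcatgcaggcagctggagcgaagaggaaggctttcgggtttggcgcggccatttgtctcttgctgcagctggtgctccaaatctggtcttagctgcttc
ZNF486: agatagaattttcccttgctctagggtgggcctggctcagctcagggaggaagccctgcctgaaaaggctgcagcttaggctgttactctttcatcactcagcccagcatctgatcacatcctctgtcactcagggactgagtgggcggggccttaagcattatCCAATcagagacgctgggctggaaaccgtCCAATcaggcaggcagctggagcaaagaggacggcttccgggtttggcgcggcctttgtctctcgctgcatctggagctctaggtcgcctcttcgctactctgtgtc
ZNF737: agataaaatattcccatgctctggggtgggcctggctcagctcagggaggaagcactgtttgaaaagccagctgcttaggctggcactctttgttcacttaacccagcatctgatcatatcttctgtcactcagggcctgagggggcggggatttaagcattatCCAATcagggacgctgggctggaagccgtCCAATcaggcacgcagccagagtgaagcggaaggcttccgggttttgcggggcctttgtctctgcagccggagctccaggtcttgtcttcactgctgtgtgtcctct
ZNF626: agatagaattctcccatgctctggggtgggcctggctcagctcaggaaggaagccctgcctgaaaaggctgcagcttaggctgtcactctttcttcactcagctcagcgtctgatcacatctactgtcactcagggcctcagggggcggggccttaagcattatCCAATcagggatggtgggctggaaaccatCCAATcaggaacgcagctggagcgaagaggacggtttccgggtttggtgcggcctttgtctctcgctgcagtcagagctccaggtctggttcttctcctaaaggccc
ZNF43: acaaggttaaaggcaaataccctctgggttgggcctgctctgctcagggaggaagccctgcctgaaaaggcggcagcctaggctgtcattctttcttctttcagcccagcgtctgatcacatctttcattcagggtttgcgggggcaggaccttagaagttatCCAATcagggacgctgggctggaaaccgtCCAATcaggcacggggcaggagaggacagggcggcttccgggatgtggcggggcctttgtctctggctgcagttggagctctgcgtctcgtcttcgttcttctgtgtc
ZNF208: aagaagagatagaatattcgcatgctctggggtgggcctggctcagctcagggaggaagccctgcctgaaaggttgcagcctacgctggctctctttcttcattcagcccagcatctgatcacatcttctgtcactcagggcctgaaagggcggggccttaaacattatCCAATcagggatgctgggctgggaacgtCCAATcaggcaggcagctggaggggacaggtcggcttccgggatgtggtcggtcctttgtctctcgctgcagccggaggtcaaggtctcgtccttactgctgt
ZNF226: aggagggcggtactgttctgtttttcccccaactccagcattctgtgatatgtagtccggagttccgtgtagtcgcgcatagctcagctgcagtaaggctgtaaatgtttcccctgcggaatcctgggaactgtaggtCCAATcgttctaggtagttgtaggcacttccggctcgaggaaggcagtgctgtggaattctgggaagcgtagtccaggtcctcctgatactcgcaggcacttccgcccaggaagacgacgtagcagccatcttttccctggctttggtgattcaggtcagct
Each of the 6 printed 19p12 windows held 2 CCAAT sites, and that of ZNF226 held 1.

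A RefSeq window of 300 bases was matched for 36 of the 45 members, 23 at 19p12 and 13 at 19q13.2, of 35116 windows in all. CCAAT, searched on both strands like every motif here, was present in 23 of 23 windows at 19p12 and in 5 of 13 at 19q13.2 (38.5%), beside 34.6% of all windows. At least 2 sites were present in 16 windows at 19p12 (69.6%) and in 1 at 19q13.2 (7.69%), beside 10.8% of all. GGGCGG, the core of the GC box, was found in 17 windows at 19p12 (73.9%) and in 4 at 19q13.2 (30.8%), beside 45.0% of all. TATAAA was found in 3 windows at 19p12 (13.0%) and in 0 at 19q13.2, beside 11.5% of all. TGANTCA, the AP1 motif, was in 0 windows at 19p12 and in 3 at 19q13.2 (23.1%), beside 7.71% of all. CCATNTT, from the YY1 motif, was in 2 windows of each cluster (8.70% and 15.4%), beside 15.6% of all. A match is a description of the letters and not a binding site.

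Promoter identity was the share of the 300 bases that matched in a global alignment. Its median was 80.3% over the 253 pairs within 19p12 (65.3% to 91.0%), 61.0% over the 78 pairs within 19q13.2 (53.0% to 75.3%) and 59.3% over the 299 pairs between the clusters. The 19p12 promoters were thus more alike than those at 19q13.2, as paralogous windows that are not independent of one another. Among 19p12 members, the median was 82.7% between called members, 80.8% between a called and another member, and 79.7% between members without a call, of which ZNF208, ZNF257, ZNF492 and ZNF730 were not tested. These ranges overlapped widely, and ZNF208, with the window printed above, was nearly silent. Median GC content was 56.0% at 19p12, 55.3% at 19q13.2 and 58.7% over all windows, and the median number of CpG was 10, 19 and 14.

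Beyond ZNF626 the calls at 19p12 no longer came in a run. ZNF66 was not called, ZNF85 was, ZNF430 was not, and ZNF714 was. ZNF85 (ENSG00000105750) had 21, 19 and 12.2 counts in DKK1-SE+/+ cells and 49, 58 and 68 in DKK1-SE-/- cells. The edited samples were close to one another and all higher (log2 fold change 1.86, SE 0.30). ZNF714 (ENSG00000160352) had 11, 6 and 5 counts against 17.1, 36 and 27.4. The groups did not overlap, with DKK1-SE-/- replicate 1 nearest to the DKK1-SE+/+ samples (1.96, SE 0.41). The members beside them, ZNF66 and ZNF430, chosen after their values were seen, had log2 fold changes of 0.37 (SE 0.34) and 0.25 (SE 0.30), with overlapping normalized counts. On the TPM scale ZNF66 had 0.92, 0.52 and 0.73 against 1.03, 0.97 and 1.43, and ZNF430 had 0.97, 0.81 and 1.06 against 1.26, 1.27 and 1.46. Both were higher without overlap in TPM, so whether the groups of these members overlapped depended on the scale.

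ZNF43 (ENSG00000198521), ZNF738 (ENSG00000172687) and ZNF91 (ENSG00000167232) had the highest mean TPM at 19p12. ZNF91 codes for a KRAB zinc finger protein known to repress SVA retrotransposons. The level of ZNF43 was 4.07, 4 and 3.43 TPM against 8.73, 7.39 and 9.86 TPM. All 3 DKK1-SE-/- samples were higher, but the log2 fold change of 0.97 (SE 0.16) fell short of the limit. ZNF738 had 3.87, 4.30 and 3.23 TPM against 3.42, 4.48 and 4.14 TPM. The groups overlapped (0.22, SE 0.24). ZNF91 had 4.40, 1.93 and 3.05 TPM against 2.89, 3.27 and 4.13 TPM. Its highest sample was DKK1-SE+/+ replicate 1, and the groups overlapped (0.43, SE 0.23). Across all 14 tested 19p12 members that were not called, log2 fold changes ran from -0.60 (ZNF254) to 1.13 (ZNF493) with a median of 0.31. Of these 14, 11 lay above 0 and 3 below. At 19p12 the member just inside the limit on the fold change was ZNF85 and the one just outside it was ZNF493, which had 16.4, 12.8 and 15.6 counts against 15.8, 32.2 and 44. Its DKK1-SE-/- replicate 1 lay near the DKK1-SE+/+ samples.

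Between ZNF43 and ZNF91, 8 adjacent members from ZNF208 to ZNF730 (1214 kb) had too few counts to be tested. They summed to 3.02, 0 and 0 counts in DKK1-SE+/+ cells and to 9.99, 5.07 and 2.32 in DKK1-SE-/- cells, and no single value exceeded 5. ZNF257 (ENSG00000197134) had 0 counts in every DKK1-SE+/+ sample and 5, 1 and 1 in DKK1-SE-/- cells. ZNF676 had 0 in every DKK1-SE+/+ sample and 1, 0 and 0, ZNF98 had 0 and then 0, 0 and 0.32, and ZNF730 had 0 and then 2, 0 and 1. ZNF99 had 1, 0 and 0 counts in DKK1-SE+/+ cells and 0 in every DKK1-SE-/- sample, and ZNF728 was at 0 in all samples. On average each of these lay under the floor of 3 counts per library in both genotypes, so no fold is given. For ZNF257 all 3 DKK1-SE-/- samples lay above the DKK1-SE+/+ samples, by as little as 1 count, and it was called higher in the fit with no filter on low counts. For the other members of this stretch the groups overlapped, and a difference was not detectable at this depth. The 5 members that follow, ZNF91 to ZNF254, were tested and not called.

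At 19q13.2 the called member was ZNF223 (ENSG00000178386). It had 11, 4 and 8.44 counts in DKK1-SE+/+ cells and 14.3, 15.3 and 30.8 in DKK1-SE-/- cells. The normalized counts did not overlap (log2 fold change 1.51, SE 0.48), but the levels did, at 0.80, 0.15 and 0.63 TPM against 0.46, 0.41 and 2.06 TPM. DKK1-SE-/- replicate 3 was the highest sample, and without it the log2 fold change was 1.03 and the call was lost. ZNF223 lies within ENSG00000267022 on the same strand, a gene that also overlaps ZNF222 and ZNF284, so reads could be split between them.

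The most abundant 19q13.2 members differed little. ZNF226 (ENSG00000167380) had 13.1, 10.7 and 6.79 TPM against 8.86, 15.4 and 10.1 TPM. The samples of both genotypes were intermixed (log2 fold change 0.04, SE 0.23). ZNF45 (ENSG00000124459) had 7.97, 7.95 and 8.04 TPM against 7.06, 7.02 and 8.63 TPM, with DKK1-SE-/- replicate 3 above all others. On normalized counts it had 14.6, 16.04 and 14.5 CPM against 13.15, 12.5 and 13.3 CPM, and all 3 DKK1-SE-/- samples were lower (-0.21, SE 0.13). ZNF227 (ENSG00000131115) had 6.69, 5.52 and 4.45 TPM against 6.12, 6.43 and 7.31 TPM. Its TPM were mostly higher in DKK1-SE-/- cells, whereas its log2 fold change from counts was -0.21 (SE 0.17), and it overlaps ZNF235 on the opposite strand. The sign of the difference changed between counts and TPM for 1 of 20 tested members at 19p12 (ZNF708) and for 3 of 16 at 19q13.2 (ZNF230, ZNF225 and ZNF227). Among the 15 tested members that were not called, 12 had log2 fold changes below 0 and 3 above, from -0.77 to 0.12 with a median of -0.21. The lowest was ZNF180, chosen after its values were seen, with 4.21, 4.38 and 3.79 TPM against 1.04, 1.85 and 2.74 TPM. All 3 of its DKK1-SE-/- samples were lower. ZNF404, also named after its values were seen, was not tested, with 14, 5 and 8 counts against 5.52, 5 and 13.0.

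The DKK1-SE-/- samples also differed among themselves. The median over the tested 19p12 members of the log2 normalized count, relative to the DKK1-SE+/+ mean, was 0.31, 0.71 and 1.00 in the 3 DKK1-SE-/- samples and 0.03, 0.18 and -0.16 in the DKK1-SE+/+ samples. At 19q13.2 it was -0.56, -0.14 and -0.09 in DKK1-SE-/- cells and 0.05, 0.02 and -0.05 in DKK1-SE+/+ cells. DKK1-SE-/- replicate 1 was thus the lowest edited sample in both clusters, while the same median over all tested genes was 0.01, 0.05 and 0.01. The order of the edited samples was the same in other ZNF genes. The median was 0.06, 0.14 and 0.24 over those of chromosome 19 that were not members. It was -0.04, 0.01 and 0.16 over those on other chromosomes. The chromosome 19 list included ZNF724, ZNF285 and ZNF229 of the intervals, and ZNF253 and ZNF682 beside the 19p12 interval. The median log2 fold change was 0.65 at 19p12 (-0.60 to 4.16) and -0.21 at 19q13.2 (-0.77 to 1.51), beside 0.03 over all tested genes. It was 0.17 over the 176 tested ZNF genes of chromosome 19 that were not members, of which 15 were called higher and 0 lower. Over 206 tested ZNF genes on other chromosomes it was 0.04, with 6 called higher and 5 lower. Over all tested genes, 4.96% were called higher and 3.70% lower. The difference between these lists was not tested. The transcripts of the 19p12 members were poor in GC, with a median of 37.0% beside 42.4% at 19q13.2 and 48.2% over all tested genes. With an offset for GC content per library, 10 members at 19p12 were called higher in place of 6. Over all genes, 681 of 15167 tested were then called higher, in place of 753 of 15179. The part of GC content in the difference was not tested further. With limma on log2(TPM + 1), which shrinks low levels, 1 member at 19p12 was called, ZNF626, beside 203 of 22311 tested genes called higher.

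Neighbours were compared by the log2 fold changes of adjacent tested genes. Pearson's r was 0.649 over the 19 adjacent pairs of 19p12 members and 0.0301 over the 15 pairs at 19q13.2, as a description with no p. With each DKK1-SE-/- sample taken alone, r was 0.497, 0.548 and 0.631 at 19p12 and 0.0146, 0.104 and -0.106 at 19q13.2. When all tested genes of the intervals were included, r was 0.454 over 33 pairs from ZNF90 to ZNF254 and 0.248 over 19 pairs from ZNF404 to ZNF180, beside 0.256 over 15142 adjacent pairs of the genome. The adjacent members ZNF90, ZNF486, ZNF737 and ZNF626 had at most 6 counts in any DKK1-SE+/+ sample. They passed the filter through the DKK1-SE-/- samples alone, so r at 19p12 rests in part on members admitted by the genotype in which they were high. Adjacent members share sequence, low counts and base composition, and r depended on the processing. With limma on log2(TPM + 1) it was -0.00105 at 19p12 and 0.375 at 19q13.2, so the order of the clusters was reversed. On log2(TPM + 0.1) it was 0.461 and 0.355. The limma fits changed several steps at once, and which of them moved r was not tested. With no filter on low counts r was 0.218 at 19p12 and 0.0292 at 19q13.2.

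**Figure D3:**
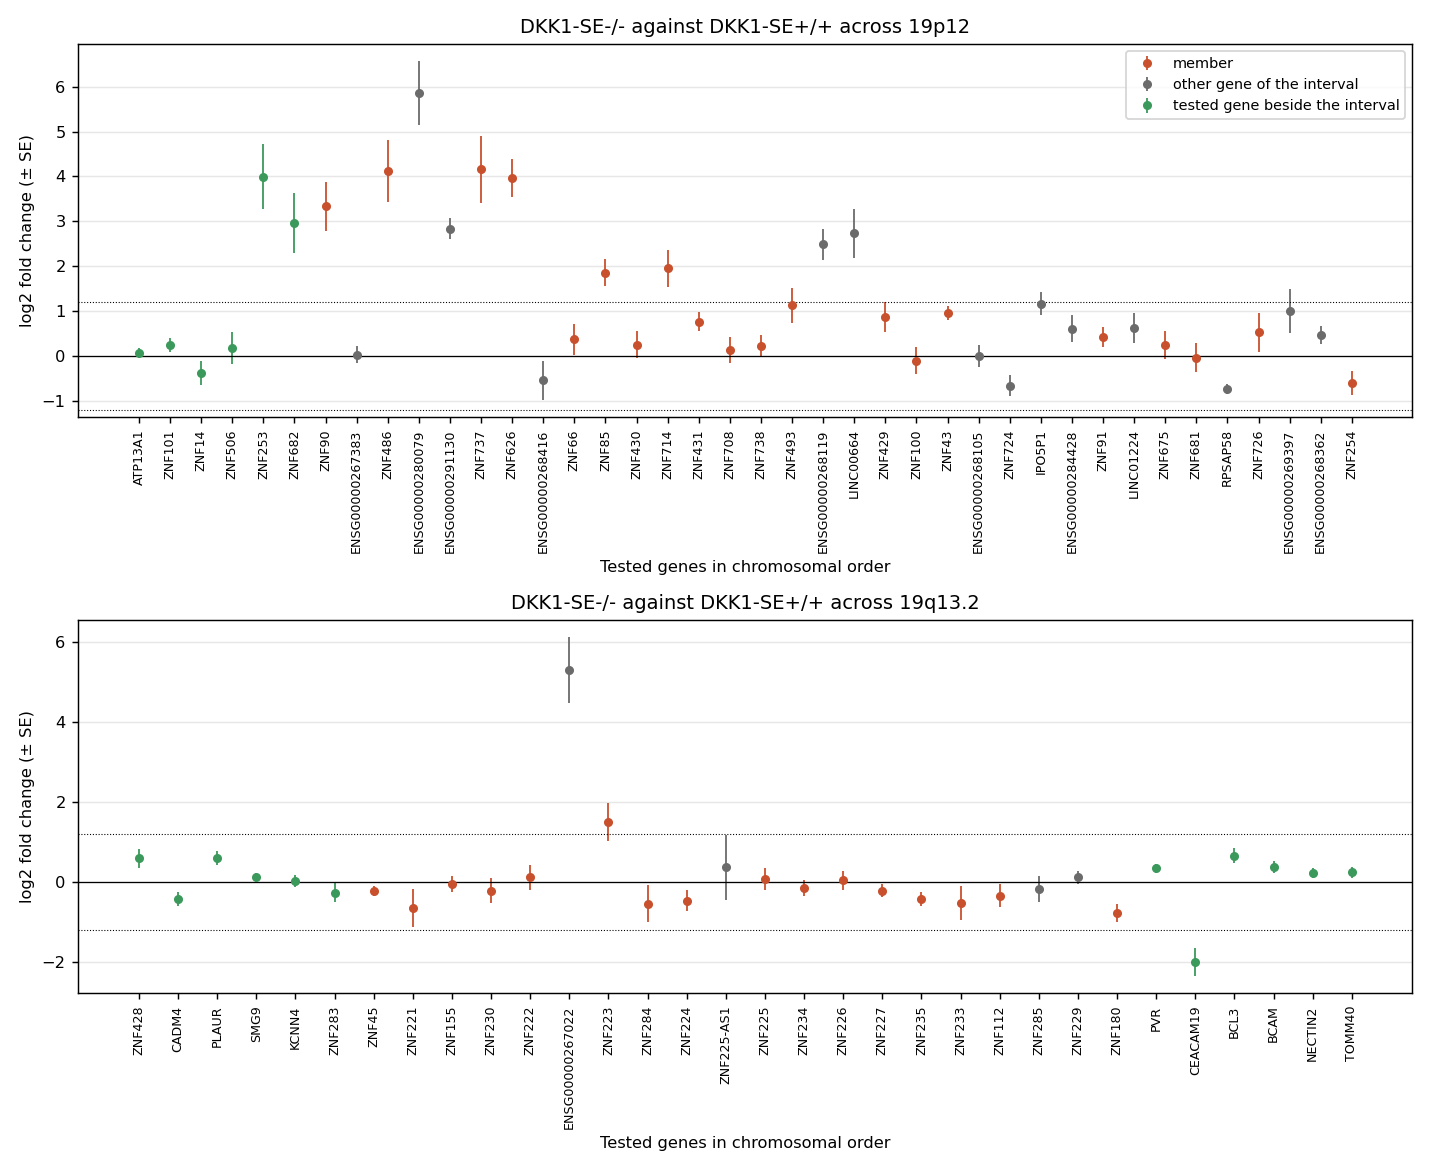
Log2 fold change (DKK1-SE-/- against DKK1-SE+/+, error bars ± SE) on the vertical axis, for tested genes in chromosomal order on the horizontal axis; members are orange, other genes of the interval grey and the nearest tested genes beside it green, and dotted lines mark the limit of 1.2. ZNF90, ZNF486, ZNF737 and ZNF626 lie between 3.33 and 4.16, ZNF253 and ZNF682 before them lie at 3.99 and 2.97, and at 19q13.2 all members but ZNF223 lie within the dotted lines.

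Genes that lie in the intervals without being members are also given as a description, since the clusters were selected on the same contrast. At 19p12, 14 of 160 such genes were tested and 4 were called higher, with a median log2 fold change of 0.62, and at 19q13.2, 4 of 21 were tested and 1 was called higher, beside 4.96% of all tested genes. In both intervals 0 were called lower by edgeR, DESeq2 and limma, beside 3.70% of all tested genes by edgeR. At an unadjusted p under 0.05 there were 6 higher and 2 lower at 19p12 and 1 higher and 0 lower at 19q13.2, beside 24.8% and 23.6% of all tested genes. The lower genes, named after their values were seen, were RPSAP58, with 60.5, 58.7 and 60.3 TPM against 33.5, 32.3 and 31.8 TPM, and the zinc finger gene ZNF724, with 110, 78.0 and 127 counts against 45, 61 and 78.0. Their log2 fold changes were -0.73 (SE 0.11) and -0.66 (SE 0.23), and their normalized counts were lower in all 3 DKK1-SE-/- samples without overlap, whereas the TPM of ZNF724 overlapped (2.56, 3.08 and 3.75 against 1.22, 1.66 and 3.06). ENSG00000291130 (chr19:20340262-20424986), a long non-coding RNA gene between ZNF486 and ZNF737, had 19.5, 14 and 13.9 counts against 92.8, 119 and 105. All 3 DKK1-SE-/- samples were higher (log2 fold change 2.83, SE 0.23). ENSG00000280079 (chr19:20220597-20222186), which lies within ENSG00000267383 on the same strand, had 0, 0 and 1 counts against 21.6, 22.6 and 28.6. It was nearly absent from DKK1-SE+/+ cells, and the ratio of 79.1 had a counting interval of 13.8 to 3175. Its log2 fold change was 5.86 (SE 0.71), and 7.69 without DKK1-SE+/+ replicate 3, and it could pass the filter only through the DKK1-SE-/- samples. ENSG00000267383 itself, which overlaps ZNF90 and ZNF486 on the opposite strand, had a log2 fold change of 0.03 (SE 0.19).

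Farther along 19p12, ENSG00000268119 (chr19:21444241-21463908) had 19, 8 and 12 counts against 40, 91 and 72.7. LINC00664 (chr19:21483374-21503238), which overlaps ZNF429 on the same strand, had 2, 8.01 and 3 counts against 17, 34 and 33. Both were higher in all 3 DKK1-SE-/- samples, with log2 fold changes of 2.49 (SE 0.35) and 2.73 (SE 0.54), the latter 3.61 without DKK1-SE+/+ replicate 2. ENSG00000267022 (chr19:44025354-44087318), the called gene at 19q13.2, had 0, 0 and 1.37 counts against 20.5, 10.9 and 16.8. All 3 DKK1-SE-/- samples were higher, with a ratio of 38.3 (counting interval 8.92 to 2102). Its log2 fold change was 5.29 (SE 0.83), and 7.12 without DKK1-SE+/+ replicate 3. It passed the filter through the DKK1-SE-/- samples alone, and did not pass when the expected counts were not rounded. Together with ZNF222 and ZNF223, whose strand and position it shares, it had summed normalized counts of 2.78, 1.91 and 1.71 CPM against 4.23, 2.97 and 4.61 CPM, without overlap. With ZNF284, which it also overlaps, the sums were 3.80, 2.33 and 2.67 CPM against 4.61, 3.67 and 5.17 CPM. The groups of this wider sum overlapped, since DKK1-SE+/+ replicate 1 lay above DKK1-SE-/- replicate 2. Whether strand was used in counting is not given in the sources used here, so overlapping genes on either strand cannot be fully separated.

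Within 1 Mb of the 19p12 interval, on its 19p side, 5 of 24 tested genes were called higher, beside 4.96% of all tested genes, with a median log2 fold change of 0.44. All 5 are named here after their values were seen. ZNF682 ends 38.5 kb before ZNF90 and had 4, 2 and 0 counts against 11, 23 and 12. ZNF253, the tested gene before it, had 4, 0 and 0 counts against 18, 21 and 23.7. These zinc finger genes lay higher in all 3 DKK1-SE-/- samples, next to the run of called members, with log2 fold changes of 2.97 (SE 0.67) and 3.99 (SE 0.72), given with no p. Their mean DKK1-SE+/+ counts, 2 and 1.33, lay under the floor of 3 counts per library. Before them, ZNF506 and ZNF14 were at 0.18 (SE 0.36) and -0.37 (SE 0.27) and were not called. The other called genes on this side, CILP2, LPAR2 and GMIP, had log2 fold changes of 2.14, 1.42 and 1.27. On the other side of 19p12 no gene within 1 Mb was tested. Beside 19q13.2, the median log2 fold change was 0.19 over 12 tested genes on the 19p side and 0.25 over 26 on the 19q side, where FOSB (1.86) was called higher and CEACAM19 (-1.99) lower, both named after their values were seen.

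Of 32 genes for proteins that KRAB zinc finger proteins recruit or that act on the same chromatin marks, 31 were tested. By the call rule 0 were higher, also by DESeq2 and limma, and 1 was lower, beside 4.96% and 3.70% of all tested genes by edgeR. At an unadjusted p under 0.05 there were 10 higher and 12 lower, beside 24.8% and 23.6% of all tested genes. At an adjusted p under 0.05 there were 10 higher and 10 lower, beside 19.8% and 19.5% of all tested genes, and the median log2 fold change was -0.07. The 3 HP1 genes (CBX1, CBX3 and CBX5) were all lower at this limit, with a median of -0.49, and 3 of 4 NuRD genes were higher. Transcript GC content was 47.6%, 39.5% and 41.8% for these HP1 genes. For CHD3, CHD4 and HDAC1, the higher NuRD genes, it was 56.3%, 51.8% and 47.5%. The part of GC content in the directions of these groups was not tested. The group of H3K9 methyltransferases, which includes the partner gene ATF7IP, had 2 higher and 2 lower of 6. Its lower genes were ATF7IP and SUV39H2. Of the demethylase genes, 2 of 3 were higher. The HUSH and MORC2 group had 1 higher and 2 lower of 4, and the DNA methylation group 1 higher and 2 lower of 7. The DNA methylation group pools genes for adding and for removing methylation. Its higher gene was DNMT3B (0.86), and its lower genes were TET2 (-0.62) and TET3 (-0.99). Of the 2 genes for H3.3 chaperones, 1 was higher and 1 lower. TRIM28, the corepressor of the KRAB domain, was the most abundant, at 1061, 1118 and 1186 TPM against 1261, 995 and 1082 TPM. The groups overlapped (log2 fold change 0.12, SE 0.12, adjusted p = 0.457 by edgeR's quasi-likelihood test with Benjamini-Hochberg adjustment). HDAC2 followed, with 175, 179 and 166 TPM against 103, 115 and 159 TPM, and then HDAC1 with 118, 122 and 108 TPM against 116, 120 and 133 TPM. HDAC2 was lower in every DKK1-SE-/- sample without passing the adjusted limit (-0.31, adjusted p = 0.0748), whereas HDAC1 passed it (0.27, adjusted p = 0.0435; edgeR quasi-likelihood, Benjamini-Hochberg). ATRX, a chromatin remodeler that deposits histone H3.3 with DAXX, had 14.8, 16.6 and 18.8 TPM against 2.79, 5.67 and 7.52 TPM. All 3 DKK1-SE-/- samples were lower (log2 fold change -1.47, SE 0.25, adjusted p = 0.000988 by edgeR's quasi-likelihood test with Benjamini-Hochberg adjustment). With the GC offset its log2 fold change was -1.02 and it was not called.

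**Figure D4:**
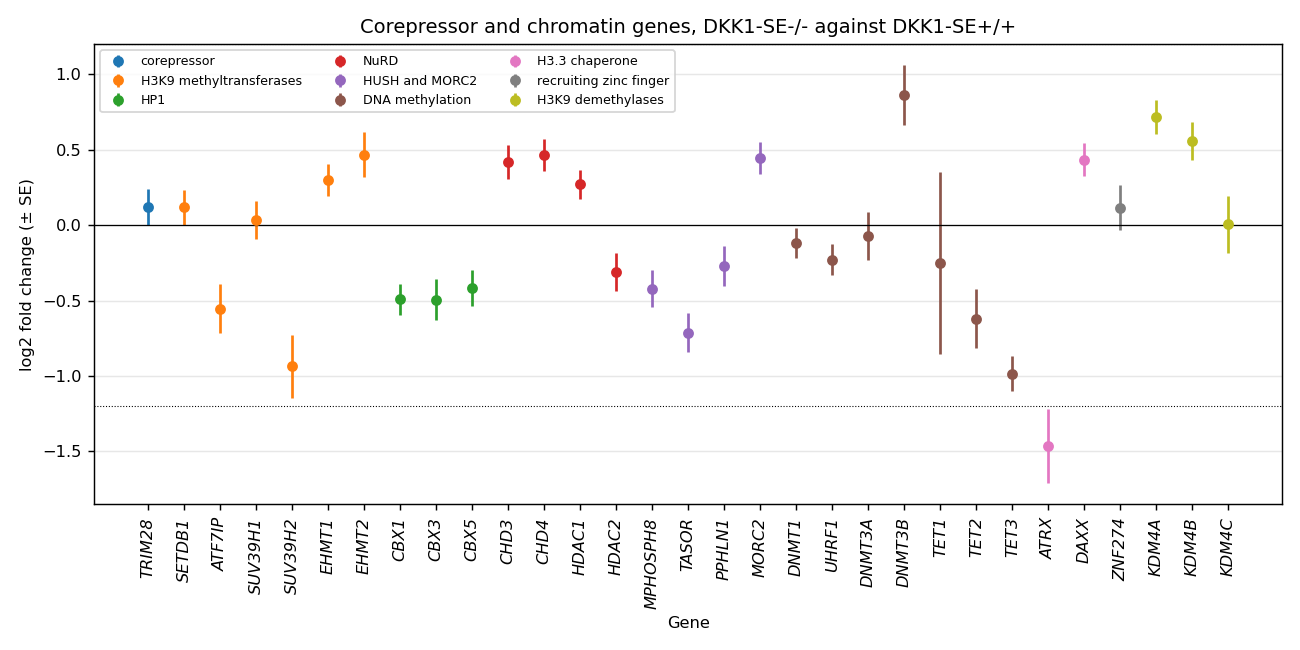
Log2 fold change (DKK1-SE-/- over DKK1-SE+/+) on the vertical axis, with error bars of ± SE, for the 31 tested partner genes on the horizontal axis, coloured by role; the dotted line marks the lower limit of the call rule. ATRX lies lowest at -1.47, the 3 HP1 genes lie between -0.49 and -0.42, and TRIM28 is at 0.12.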

How the data were processed

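RNA-seq of 3 DKK1-SE+/+ and 3 DKK1-SE-/- samples of PANC-1 cells was analysed from the table that the authors deposited. Each gene's deposited expected counts were estimates without normalization, some of them fractional, and the deposited TPM values had been normalized by the authors within samples. Libraries were made with a stranded mRNA kit. The build was hg38 in the submitters' processing notes, while the aligner, the counter, the annotation and the use of strand in counting are not given in the sources used here. The authors' comparison in the same table (fold change, log2 fold change, p-value, adjusted p-value and calls) and its annotation columns were not used.

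Expected counts were rounded and fitted with edgeR 4.0.16 in R 4.3.3 on the whole table, with filterByExpr by group (minimum count 10), TMM normalization and the quasi-likelihood F test, with the genotype as the single term. P-values were adjusted by the Benjamini-Hochberg method over 15179 tested genes. Calls needed an unadjusted p under 0.05 together with a log2 fold change of 1.2 or more in either direction. The SE was the absolute log2 fold change divided by the square root of F. Normalized counts were divided by library size times the TMM factor. Ratios used summed counts per effective depth, with exact binomial 95% intervals, and the floor was 3 counts per library. Intervals and floors cover counting error only. Of the nonzero member counts, 33.5% were not whole (tolerance 1e-06) and reads shared by similar genes may have been divided between them, so counts of close paralogs are uncertain. Positions and transcript GC content came from GENCODE version 44 (GRCh38), and promoters and their alignment from RefSeq windows with Biopython 1.88 in Python 3.11.15.

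Named genes were the called members, the 3 members of each cluster with the highest mean TPM, members at 0 in all samples of 1 genotype alone, called genes of the intervals and of the partner list, the 3 partner genes with the highest mean TPM, and DKK1; genes overlapping a named gene could be named with it. Other named genes, among them the neighbours of called members and the HP1 genes, were chosen after their values were seen. The members and lists were chosen with earlier results of these data known. Alternatives were RLE factors, library size alone, DESeq2 1.42.0, no filter on low counts, a replicate block, each sample left out in turn, limma 3.58.1 on log2(TPM + 1) or log2(TPM + 0.1), unrounded counts, a GC offset in 40 bins with and without the block, an adjusted p and a linear fold limit of 1.2. The edgeR fit was tested on simulated data.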

Additional observations from a re-analysis of the deposited data

How the results depend on the processing

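Over 18 alternatives, 214 of the counts, medians and correlations computed for the clusters, the other genes of the intervals and the partner genes stayed within 1.5 times the reported count or within 1 SD of the DKK1-SE-/- samples for a median or correlation, and 30 moved beyond that, and of the values of single named genes 237 kept their side of the call, 14 fell short of it and none reversed. The 6 called 19p12 members were all called under each alternative apart from both limma fits. With the GC offset, without and with the replicate block, 10 members at 19p12 were called higher, the median log2 fold change over all tested 19p12 members was 1.07 and 1.09 (-0.07 and -0.06 at 19q13.2), and 0 partner genes were called lower. With unrounded counts 0 other genes at 19q13.2 were called higher, because ENSG00000267022 then did not pass the filter. With limma on log2(TPM + 0.1), 5 members at 19p12 were called higher, all called members but ZNF714, and 0 at 19q13.2. In that fit r between neighbours was 0.461 at 19p12 and 0.355 at 19q13.2. With limma on log2(TPM + 1), 1 member at 19p12 and 0 at 19q13.2 were called higher, as were 2 and 0 other genes of these intervals, the median was 0.32 at 19p12, and r was -0.00105 and 0.375. Without a filter r at 19p12 was 0.218, over more pairs with few counts. By adjusted p alone, 1 member at 19q13.2 and 2 other genes at 19p12 were lower, and 10 partner genes were higher and 10 lower. By the linear fold limit of 1.2, 10 members at 19p12 were higher and 1 lower, 2 members at 19q13.2 and 2 other genes at 19p12 were lower, and 10 partner genes were higher and 11 lower. By construction the adjusted p rule drops the limit on the size of the change as well as adjusting the p, and the linear rule has a smaller limit. Apart from these rules, the unrounded counts and the missing filter, the cause was not tested. Leaving out each sample in turn gave 6 to 7 called members at 19p12 and 0 to 1 at 19q13.2 (0 without DKK1-SE-/- replicate 3), medians of 0.44 to 0.86 and -0.32 to -0.14, and r of 0.593 to 0.694 and -0.0895 to 0.178. Over all genes, the counts called higher and lower were 753 and 561, against 203 and 356 (limma, TPM + 1), 992 and 938 (TPM + 0.1), 1617 and 873 (no filter), 3013 and 2959 (adjusted p), 3696 and 3531 (linear limit), and 829 and 846 without DKK1-SE-/- replicate 3. With the GC offset these counts were 681 and 511 of 15167 tested genes, and 685 and 527 with the replicate block as well. The same-numbered samples did not deviate together (r of -0.123, -0.0738 and -0.109). Between samples of different number r ran from -0.0471 to 0.153. With so few samples these values do not settle whether samples were prepared in pairs. The fit with the replicate number as a block called 6 members higher at 19p12 and 1 at 19q13.2, and 772 genes higher and 598 lower in all. Members with few counts, such as the 8 that were not tested at 19p12, limit what this depth can show.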
